A study of Equus caballus with 6 samples.

Results

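The 10 genes described here encode secreted or cell-surface adhesion proteins: FN1, TNC, EDIL3, EGFL6, SPARC, SPARCL1, ABI3BP, CILP, VIT and VCAM1. They were chosen by their large signal differences between regions on these same arrays, so every regional difference below is a description and carries no test. Their probes were found by symbol or full gene name in the probe descriptions of the array. The 10 genes have 33 of 43603 probes on the array and are 10 of 13596 named genes.

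The study compared regions of the horse joint collected by laser capture microdissection, which cuts chosen cells out of a thin tissue section. The superficial, middle and deep layers came from adult stifle articular cartilage, labelled as 15 years of age, at the outer 10%, the next 20 to 30% and 50 to 90% of the depth from the surface. The intermediate interzone, the outer interzone and transient embryonic cartilage came from hindlimbs at gestational day 40. The interzone is the cell layer that forms between skeletal elements where a joint will be, and transient cartilage is the part of the cartilage model that bone later replaces. Each of the 6 regions has 1 array, and neither the number of animals nor the animal behind each region was given in the sources used here. The labels name no treatment and no allele for any group.

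Cartilage is mostly matrix, in which collagen and proteoglycan carry the load and glycoproteins link cells to that scaffold. Fibronectin (FN1) and tenascin C (TNC) are large multidomain proteins of this kind, and both are known from the surface of joints and the perichondrium. EDIL3 and EGFL6 are secreted proteins with EGF repeats and an integrin-binding motif, SPARC and its relative SPARCL1 bind collagen, and ABI3BP is a secreted protein with fibronectin type III repeats. CILP is a chondrocyte product named for the intermediate layer of human articular cartilage, VIT (vitrin) has von Willebrand factor A domains, and VCAM1 is an immunoglobulin-family receptor of the cell membrane that binds integrins holding the ITGA4 chain, so it is not a matrix protein in the strict sense.

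The probes are 60-base oligonucleotides, and their sequences in the deposited scanner files fix which stretch of each mRNA was read. No run of 20 bases is shared between the 33 probes and the 43570 other probes, nor between probes of different genes among the 10. Probes of 6 of the genes are shown, each named by its gene and by the base at which it starts in the transcript record the files give for it. Capitals in FN1 mark the 11 bases that 8 overlapping FN1 probes share, and capitals in the TNC probe at base 6063 mark the 56 bases that 5 TNC probes share. The TNC probe at base 424 is shown because it is dark on arrays where the other 5 are bright, and its position is counted in a transcript record of its own. Probes of VIT, VCAM1, EDIL3 and SPARC and the last FN1 probe may lie in untranslated regions and are not shown in full.
FN1 7074: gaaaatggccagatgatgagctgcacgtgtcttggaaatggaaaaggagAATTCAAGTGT
TNC 6063: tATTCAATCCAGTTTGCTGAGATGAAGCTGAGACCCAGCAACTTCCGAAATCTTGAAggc
TNC 424: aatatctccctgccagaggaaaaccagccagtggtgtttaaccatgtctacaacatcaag
EGFL6 1585: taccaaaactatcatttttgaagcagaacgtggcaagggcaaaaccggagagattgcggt
SPARCL1 1941: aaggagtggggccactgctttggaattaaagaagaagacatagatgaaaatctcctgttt
ABI3BP 3464: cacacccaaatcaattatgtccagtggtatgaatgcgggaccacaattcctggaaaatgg
CILP 3349: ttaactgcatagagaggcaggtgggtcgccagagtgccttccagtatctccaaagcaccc

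Levels are given as normalized log2 signals: log2 of the processed spot signal minus the array's 75th percentile of the 1765 probes that passed the background flag on all 6 arrays. A level of 0 is therefore a bright spot, and levels of different genes are not compared. Folds and bounds are those of this scaling, and other settings moved many of them by more than 1.5 times. The lowest signal counted as well above background, the detection floor, lay between -8.94 in the outer interzone and -6.01 in the middle layer. Between 8.39% of probes in the middle layer and 44.6% in transient cartilage were well above background, and the floor in the middle and deep layers was higher than on the other 4 arrays. No spot was saturated. The adult arrays lie on one slide and the fetal arrays on another, so stage and slide cannot be told apart. Fewer cells of a type and less RNA per cell cannot be told apart in these captured regions.

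The labelled tissues showed part of their defining markers. Of 11 cartilage and chondrocyte markers on the array, 5, 4 and 5 were well above background in the superficial, middle and deep layers, against 8 in the intermediate interzone and 11 each in the outer interzone and transient cartilage. The adult layers had ACAN, SOX9, COL11A1 and COMP but not COL2A1, the main collagen of hyaline cartilage, which was well above background on every fetal array. GDF5, which marks the interzone, was well above background in both interzone regions and on no other array.

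The 10 genes did not share a region. FN1 and ABI3BP were measured everywhere and were dimmest in transient cartilage. TNC and VCAM1 were brightest, among adult layers, in the superficial layer. CILP and VIT were brightest in the deep layer rather than at the surface. EGFL6 and SPARCL1 were bright in both interzone regions, SPARC in all fetal regions, and EDIL3 in transient cartilage.

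**Figure D1:**
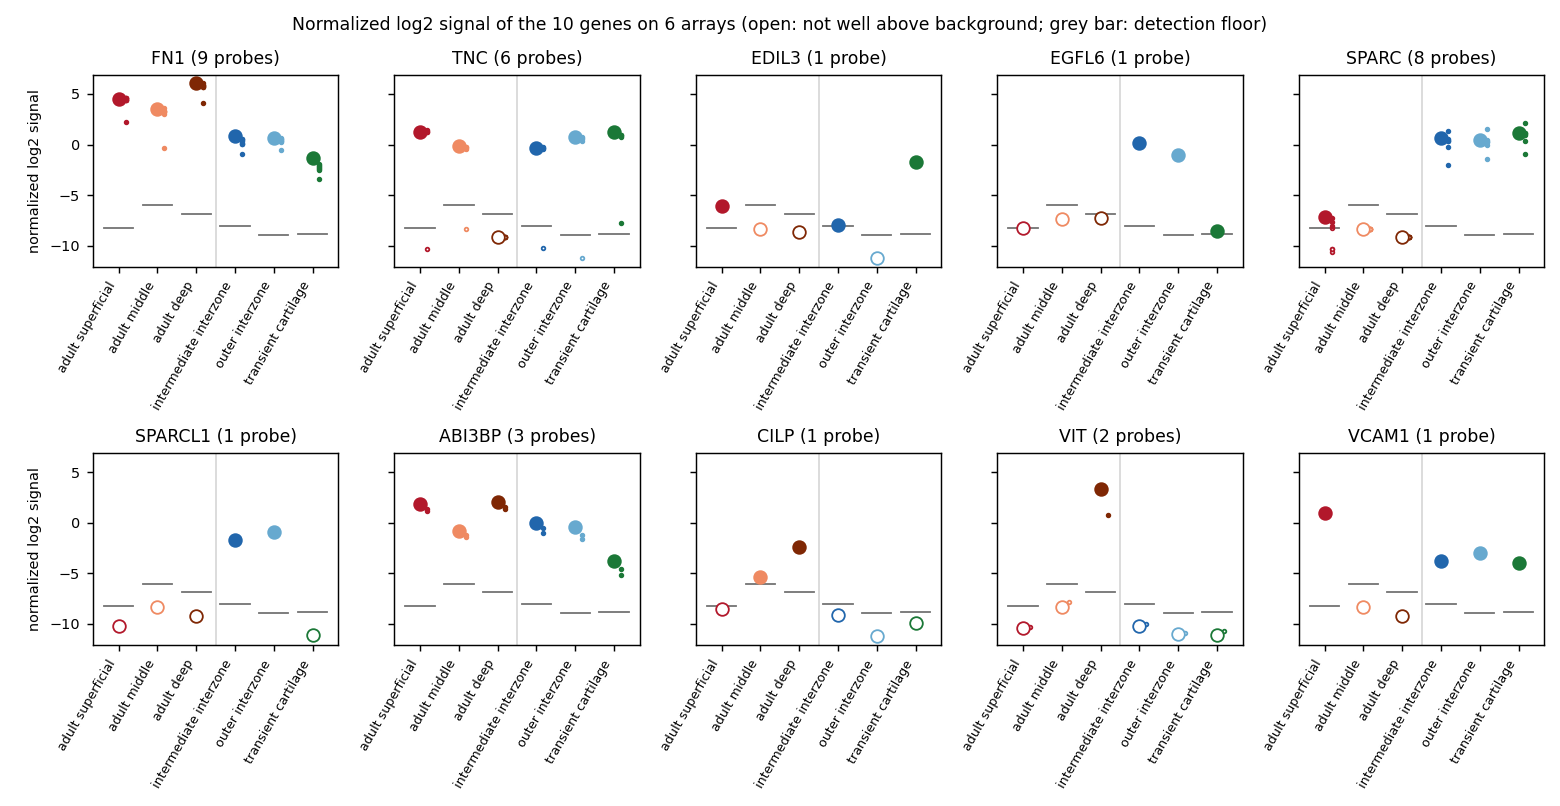
Normalized log2 signal (y axis) of each of the 10 genes on the 6 arrays (x axis). Large points are the reported probe and small points the other probes, open points are not well above background, and grey bars are each array's detection floor. FN1 lies between 3.49 and 6.06 on the adult arrays, and VIT is filled in the deep layer only.

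FN1, which assembles into fibrils that bind integrins and collagen, had levels of 4.52, 3.49 and 6.06 in the superficial, middle and deep layers, against 0.87, 0.64 and -1.37 in the intermediate interzone, outer interzone and transient cartilage. All 9 FN1 probes were well above background on all 6 arrays. The adult values all lay above the fetal ones, and the 2 interzone values were the closest neighbours in the order. Their difference of 0.23 log2 is about the size of the spot error of a difference, 0.20 log2. An FN1 sequence is present on the array as 2 probes, and these differed by at most 0.26 log2, in the middle layer.

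The 9th FN1 probe, which starts at base 7882 and lies apart from the other 8, gave other differences among the adult layers. With this probe the superficial layer was 6.28-fold higher than the middle layer, against 2.04-fold for the reported probe, and the middle layer was 22.8-fold lower than the deep layer, against 5.93-fold. All 9 probes kept the order deep, superficial, middle among the adult layers.

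ABI3BP, a secreted protein with fibronectin type III repeats, had levels of 1.86, -0.77 and 2.06 in the superficial, middle and deep layers, against -0.04, -0.43 and -3.78 in the intermediate interzone, outer interzone and transient cartilage. The superficial and deep layers differed by 0.20 log2, no more than the spot error, and their order depends on the scaling: the difference ran between -1.11 and 0.89 over the alternatives. Its 3 probes overlap in steps along 1 stretch of the transcript and were all well above background on all 6 arrays. The adult and fetal ranges of ABI3BP overlapped, because the middle layer lay below both interzone values.

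TNC, which is made at sites of joint and tendon formation and modulates adhesion to fibronectin, had levels of 1.22 and -0.15 in the superficial and middle layers, against -0.37, 0.73 and 1.27 in the intermediate interzone, outer interzone and transient cartilage. The deep layer gave no TNC signal well above background with any of 6 probes. With the reported probe the superficial layer and transient cartilage differed by less than the spot error, while the probe at base 6060 had 1.32 in the superficial layer and 0.90 in transient cartilage, so no order is drawn between them. The probe at base 424 read 1.92, 1.58 and 1.53 in the superficial, middle and deep layers, against 1.99 and 1.89 in the interzone regions and 19.1 in transient cartilage, the only array where it was well above background.

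VCAM1 had a level of 1.02 in the superficial layer and no signal well above background in the middle or deep layer, against -3.74, -2.97 and -3.94 in the intermediate interzone, outer interzone and transient cartilage. The fetal values lay within 0.97 log2 of each other and the superficial value stood clear of them. VCAM1 is also made by activated endothelium. Of 8 endothelial markers on the array, only VWF was well above background on the adult arrays, at -6.64, -3.61 and -4.69 in the superficial, middle and deep layers. TIE1 was well above background in the outer interzone only, at -6.68, the region where VCAM1 was brightest among the fetal ones. The 8 markers, with those not well above background counted in, summed to 0.0173, 0.104 and 0.0516 of the array's scaling signal in the adult layers. In the fetal regions they summed to 0.00800, 0.0136 and 0.00613. None of the 8 was well above background in the intermediate interzone or transient cartilage. VWF had processed signals of 25.6, 41.6 and 34.6 in the superficial, middle and deep layers, whose scaling signals were 2560, 507 and 891. PECAM1, CDH5 and KDR were not well above background on any array. The part of endothelial cells in the VCAM1 values was not tested.

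EDIL3, an integrin ligand, had a level of -6.04 in the superficial layer, no signal well above background in the middle or deep layer, and values of -7.96 in the intermediate interzone and -1.75 in transient cartilage. It was not well above background in the outer interzone. The intermediate interzone value lies only 0.06 log2 above the detection floor, so any fold against it is close to a bound.

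EGFL6 had levels of 0.12, -1.07 and -8.59 in the intermediate interzone, outer interzone and transient cartilage, and no signal well above background in any adult layer. Transient cartilage was only 0.25 log2 above its floor. SPARCL1, a relative of SPARC, had levels of -1.72 and -0.91 in the intermediate and outer interzone and was not well above background on the other 4 arrays. For both genes the 2 interzone regions were the bright ones.

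SPARC, a collagen-binding protein made by cells that lay down matrix, had levels of 0.63, 0.45 and 1.17 in the intermediate interzone, outer interzone and transient cartilage. In the superficial layer it had a level of -7.22, read by 4 of its 8 probes, and no probe was well above background in the middle or deep layer. Its probes fall in 2 blocks along the transcript. The 3 probes that start at bases 2016, 2036 and 2056 overlap in the 20-base run AAAGCTGCTTCTTATTAATC, printed here to mark the block that read no superficial signal well above background. The 4 probes that did so lie in the other block.

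CILP, which can restrain TGF-beta signalling, had levels of -5.33 and -2.36 in the middle and deep layers and was not well above background in the superficial layer or any fetal region. VIT had a level of 3.38 in the deep layer and was not well above background on the other 5 arrays. Its 2 probes read 9270 and 1510 in the deep layer, so both carry the signal. The VIT value rests on 1 array.

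**Figure D2:**
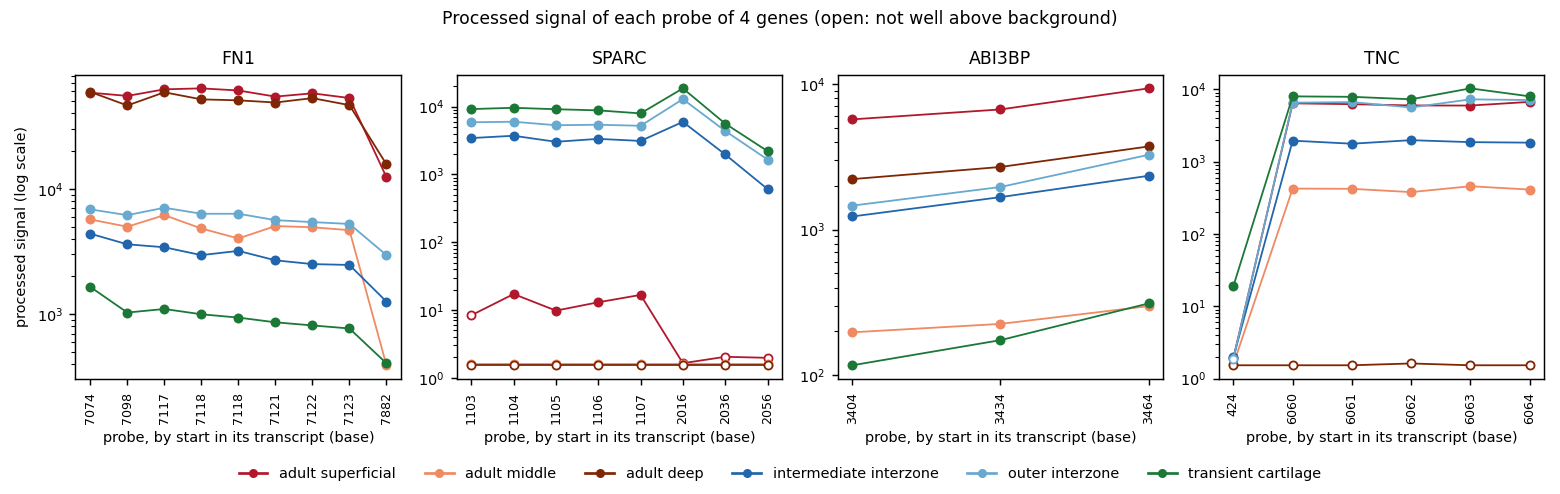
Processed signal (y axis, log scale) of every probe of FN1, SPARC, ABI3BP and TNC, ordered by start in the transcript (x axis). Lines join probes of 1 array and open points are not well above background. The FN1 probe at 7882 reads 391 in the middle layer, and the SPARC probes at 2016 to 2056 are filled on the fetal arrays only.

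The first comparison, intermediate interzone over transient cartilage, asks how the joint-forming layer differs from cartilage that becomes bone. Of 8 genes that could be compared, 4 passed 4-fold upwards in the intermediate interzone and 1 downwards, against 17.5% higher and 14.5% lower of all 6930 genes that could be compared. EGFL6 was 417-fold higher, ABI3BP 13.4-fold and FN1 4.73-fold, and SPARCL1 was at least 138-fold higher. EDIL3 was 74.0-fold lower. Over the alternative settings EGFL6 ran between 47.0-fold and 611-fold, SPARCL1 between 18.3-fold and 657-fold, ABI3BP between 9.16-fold and 30.1-fold and EDIL3 between 6.01-fold and 108-fold. TNC was 3.11-fold lower, SPARC 1.45-fold lower and VCAM1 1.15-fold higher, all short of 4-fold. The median of all measured genes was 0.36 log2, and relative to it EGFL6 stood at 8.34, ABI3BP at 3.38, FN1 at 1.88 and EDIL3 at -6.57. Scaled to the 50th percentile of the common probes, FN1 came to 1.69 and TNC to -2.19, giving 3 higher and 2 lower. The reported probes gave the smallest FN1 and the largest TNC difference. Before that rescaling, FN1 probes ran from 2.24 to 2.64 log2 and the TNC probes measured on both arrays from -1.64 to -1.05 log2. VCAM1 ran between -0.35 and 0.53 over the alternatives.

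The outer interzone gave nearly the same picture against transient cartilage, which is the same array in both comparisons. Again 4 of 8 passed 4-fold upwards and 1 downwards, against 15.4% and 16.1% of 7240 genes. EGFL6 was 183-fold higher, ABI3BP 10.2-fold and FN1 4.04-fold, SPARCL1 was at least 243-fold higher, and EDIL3 at least 146-fold lower. Over the settings EGFL6 ran between 21.1-fold and 239-fold, SPARCL1 between 27.5-fold and 1155-fold and EDIL3 between 24.1-fold and 714-fold. The reported FN1 probe lies at the threshold: it had 1.78 and 1.80 log2 under 2 of the other scalings, which leaves 3 genes higher. It gave the smallest difference of the FN1 probes. The others gave 5.83-fold to 7.11-fold. The median of all measured genes was 0.08 log2. TNC, SPARC and VCAM1 stood at -0.54, -0.72 and 0.97 log2, and VCAM1 reached 1.35 with the 50th percentile of all probes.

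Between the intermediate and the outer interzone none of 8 genes differed by 4-fold, against 16.0% higher and 14.1% lower of 6682 genes. EGFL6 was 2.28-fold higher in the intermediate interzone and TNC 2.13-fold lower. EDIL3 was at least 1.97-fold higher there, from a value at the floor. ABI3BP, FN1 and SPARC differed by 0.39, 0.23 and 0.18 log2, beside a median of all genes of 0.22. The sign of the FN1 difference (-0.13 to 0.35) and of the SPARC difference (-0.15 to 0.31) depends on the setting. SPARCL1 and VCAM1 were lower in the intermediate interzone by 0.82 and 0.77 log2.

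**Figure D3:**
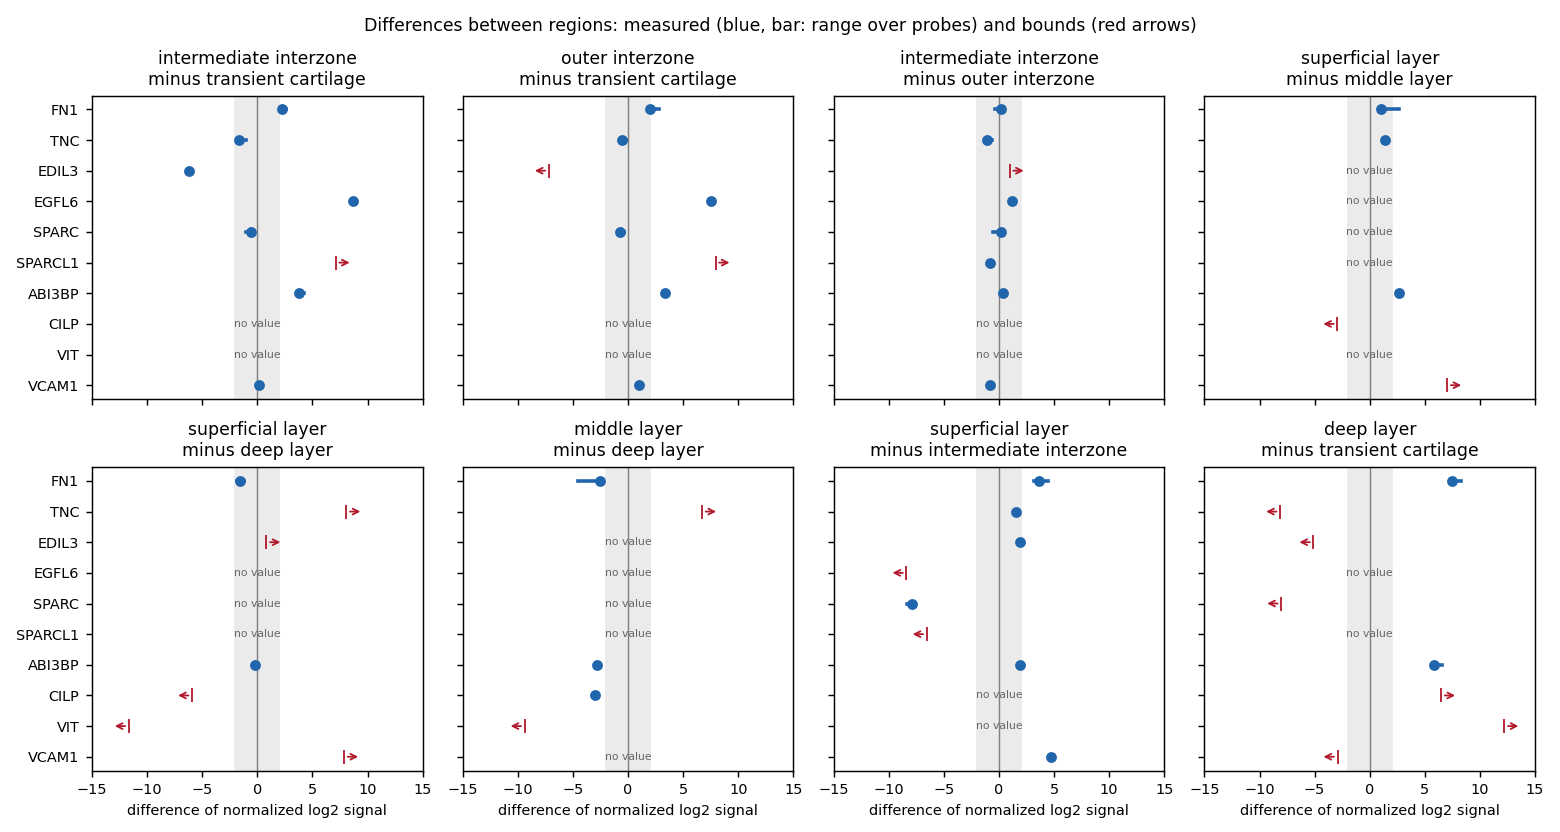
Difference of normalized log2 signal (x axis) of each gene (y axis) in the 8 regional comparisons. Points are measured differences with the range over probes as a bar, arrows are bounds for genes above background on 1 side only, and the grey band is under 4-fold. No gene leaves the band between the 2 interzone regions, while 8 do so between the deep layer and transient cartilage.

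Among adult layers, the superficial layer was first set against the middle layer. In this pair 2 of 7 passed 4-fold upwards and 1 downwards in the superficial layer, against 33.7% and 16.0% of 4155 genes. EDIL3 and SPARC, counted among the 7, were too dim for a fold. ABI3BP was 6.19-fold higher, VCAM1 at least 130-fold higher and CILP at least 7.72-fold lower. VCAM1 ran between 20.6-fold and 649-fold and CILP between 2.00-fold and 16.1-fold over the settings that gave a value. With the narrower filter 2 genes were higher and 0 lower. The middle-layer CILP level lay 0.68 log2 above the floor. TNC was 2.58-fold and FN1 2.04-fold higher. The median of all measured genes here was -1.52 log2, and relative to it ABI3BP stood at 4.15, TNC at 2.89 and FN1 at 2.55. Scaling to the 50th percentile of all probes moves that median to 0.43 and gives 4 genes higher and 0 lower, with FN1 at 2.97 and TNC at 3.32 and CILP under 4-fold.

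Against the deep layer, the superficial layer had 2 of 8 past 4-fold upwards and 2 downwards, beside 36.9% and 12.4% of 4258 genes. SPARC, counted among the 8, was too dim for a fold. TNC was at least 271-fold and VCAM1 at least 236-fold higher, while VIT was at least 3232-fold and CILP at least 60.3-fold lower. Over the settings that gave a value TNC ran between 35.0-fold and 576-fold, VCAM1 between 35.2-fold and 1178-fold, VIT between 414-fold and 14555-fold and CILP between 9.38-fold and 114-fold. With the wider filter TNC gave no fold. FN1 was 2.91-fold lower, and 2 other scalings took it past 4-fold (-2.08 and -2.46 log2). ABI3BP was 1.15-fold lower, with a sign that depends on the scaling. Relative to the median of all measured genes, -0.83 log2, FN1 stood at -0.71 and ABI3BP at 0.63.

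Between the middle and the deep layer, 1 of 5 genes was at least 4-fold higher and 4 were lower in the middle layer, against 15.6% and 22.9% of 2108 genes. TNC was at least 105-fold higher, with a bound of 14.1-fold under normexp. This call was not made with the wider filter, under which TNC and VIT gave no fold and 0 genes were higher. FN1 was 5.93-fold, ABI3BP 7.10-fold and CILP 7.81-fold lower, and VIT at least 670-fold lower. Relative to the median of all measured genes, 0.80 log2, FN1 stood at -3.36, ABI3BP at -3.62 and CILP at -3.76. CILP in the middle layer lies 0.68 log2 above the floor and came to -1.03 with quantile normalization and -1.05 with normexp.

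The superficial layer was set against the intermediate interzone, the adult and the fetal tissue at the joint surface. Here 2 of 8 passed 4-fold upwards and 3 downwards in the superficial layer, against 17.0% and 36.9% of 6245 genes. FN1 was 12.5-fold and VCAM1 27.0-fold higher. SPARC was 231-fold lower, EGFL6 at least 335-fold lower and SPARCL1 at least 94.1-fold lower. The superficial SPARC level lay only 1.06 log2 above the floor. Over the settings FN1 ran between 12.5-fold and 62.3-fold, VCAM1 between 17.4-fold and 134-fold, SPARC between 46.3-fold and 471-fold, EGFL6 between 39.2-fold and 335-fold and SPARCL1 between 15.1-fold and 366-fold. ABI3BP, EDIL3 and TNC were 3.73-fold, 3.79-fold and 3.00-fold higher. Those 3 passed 4-fold under the 75th or the 50th percentile of all probes and in the authors' deposited table, which gives 5 higher and 3 lower. EDIL3 ran between -0.41 and 4.24 log2 over all alternatives, so its direction is not fixed. The median of all measured genes was -0.11 log2.

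The deep layer was set against transient cartilage, the adult and the fetal cartilage away from the joint surface. Of 9 that could be compared, 4 passed 4-fold upwards and 4 downwards in the deep layer, against 11.6% and 33.5% of 6484 genes. EGFL6, counted among the 9, was too dim for a fold. FN1 was 173-fold and ABI3BP 57.3-fold higher, VIT at least 4751-fold and CILP at least 88.7-fold higher. TNC was at least 281-fold, SPARC at least 262-fold, EDIL3 at least 34.6-fold and VCAM1 at least 7.61-fold lower. Over the settings that gave a value FN1 ran between 126-fold and 1503-fold, ABI3BP between 42.0-fold and 499-fold, VIT between 484-fold and 41402-fold and CILP between 11.8-fold and 773-fold. TNC ran between 32.2-fold and 384-fold and SPARC between 30.1-fold and 1312-fold. The median of all measured genes was 1.13 log2, and relative to it FN1 stood at 6.31 and ABI3BP at 4.72. Scaled to the 75th percentile of all probes, EDIL3 came to -1.99, and 4 genes were higher and 2 lower. VCAM1 fell short of 4-fold with normexp (-0.48) and with the narrower filter (-1.93), and gave no fold with the 75th percentile of all probes or with quantile normalization. TNC and VIT gave no fold with the wider filter.

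Over the 3 arrays of each age, 2 of the 10 genes were measured everywhere. FN1 averaged 4.69 on the adult arrays, with a range of 3.49 to 6.06, against 0.05 on the fetal arrays, with a range of -1.37 to 0.87. ABI3BP averaged 1.05 on the adult arrays and -1.42 on the fetal arrays, with overlapping ranges. FN1 thus had all 3 adult values higher, as did 23.4% of 572 genes measured on all arrays, while 10.3% had all 3 lower. The difference of FN1 was 4.64 log2 and that of ABI3BP 2.47 log2, beside a median of all genes of 0.55.

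**Figure D4:**
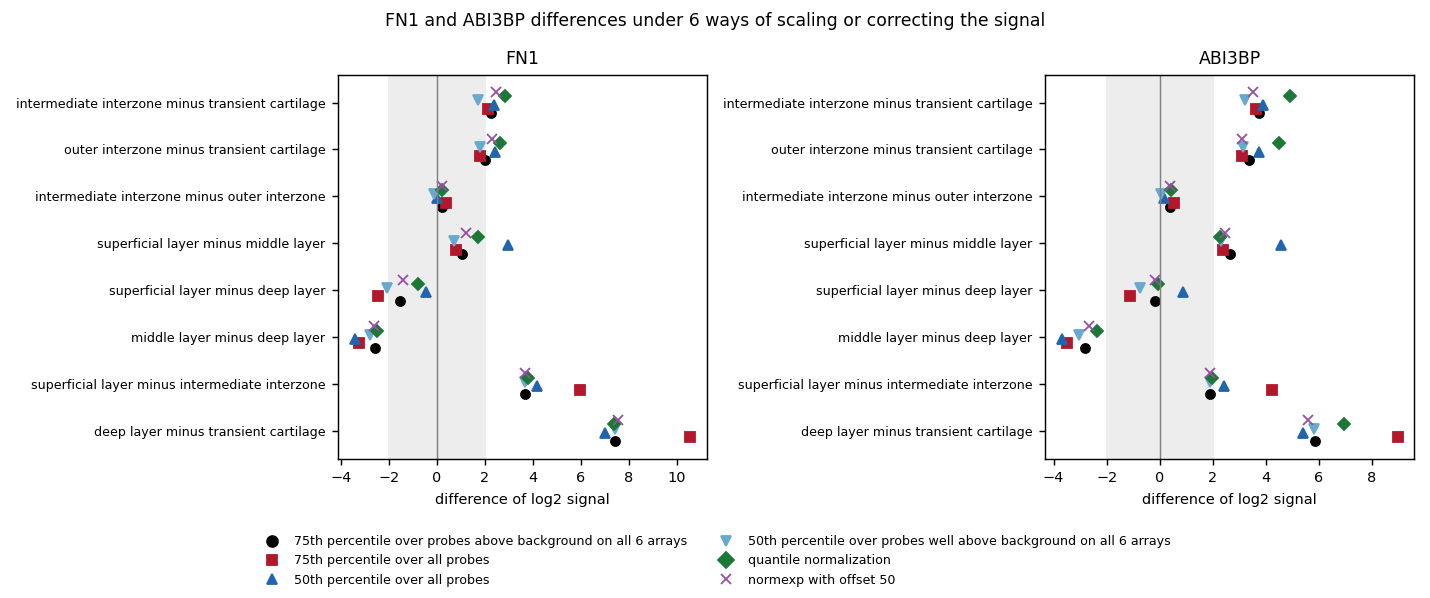
Difference of log2 signal (x axis) for FN1 and ABI3BP in the 8 regional comparisons (y axis) under 6 ways of scaling or correcting the signal. The grey band is under 4-fold. FN1 in the superficial against the middle layer ranges from 0.70 to 2.97, and ABI3BP in the superficial against the deep layer crosses 0.

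Integrins are the receptors through which cells hold fibronectin and related ligands. Of 10 integrin genes on the array, 3, 2 and 2 were well above background in the superficial, middle and deep layers, against 4, 6 and 7 in the intermediate interzone, outer interzone and transient cartilage. Of all probes, 26.4%, 8.39% and 10.8% were so in the adult layers and 36.9%, 43.3% and 44.6% in the fetal regions. ITGA5, the alpha chain of the main fibronectin receptor, was 5.26-fold higher in the intermediate interzone and 4.90-fold higher in the outer interzone than in transient cartilage. It was 77.5-fold higher in the deep layer than in transient cartilage and at least 214-fold lower in the superficial layer than the deep layer. ITGAV, the alpha chain of several receptors for EDIL3 and FN1, was at least 106-fold lower in the superficial layer than the deep layer, and 10.1-fold higher in the deep layer than in transient cartilage. ITGB3, a partner of ITGAV, was not well above background on any array. ITGB5, another beta chain, had levels of -4.15, -5.68 and -2.76 in the intermediate interzone, outer interzone and transient cartilage. In the superficial layer ITGB5 had -7.14, and it was not well above background in the middle or deep layer.

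ITGB1, the chain that pairs with ITGA5, was 8.05-fold lower in the superficial layer than in the intermediate interzone and not well above background in the middle or deep layer. In the deep layer, then, ITGA5 was well above background without ITGB1. The ITGB1 fold against the intermediate interzone depends on the scaling. In that comparison the median of all measured genes was -0.11 log2, and 2.21 with the 75th percentile of all probes. ITGA4, whose product pairs with ITGB1 to bind VCAM1, was well above background in transient cartilage only. ITGB7 lay below transient cartilage by at least 52.6-fold in the intermediate interzone and by 13.2-fold in the outer interzone. Of 7 integrin genes that could be compared with transient cartilage, 1 was at least 4-fold higher and 2 lower in the intermediate interzone, 1 higher and 3 lower in the outer interzone, and 2 higher and 3 lower in the deep layer. The shares of all genes were 17.5% and 14.5%, 15.4% and 16.1%, and 11.6% and 33.5%. The median of the measured ones was 0.14 log2 in the intermediate interzone, beside 0.36 over all genes, and -0.65 in the outer interzone, beside 0.08.

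Of 9 relatives of the 10 genes that could be compared, 2 were at least 4-fold higher and 1 lower in the intermediate interzone than in transient cartilage, near the 17.5% and 14.5% of all genes. SMOC2, of the SPARC family, was 12.5-fold lower in the intermediate interzone and 65.7-fold lower in the outer interzone than in transient cartilage, and at least 22.7-fold higher in the superficial layer than the deep layer. SMOC1 was 5.29-fold higher in the outer interzone than in transient cartilage. FSTL1 was 5.77-fold higher in the intermediate interzone than in transient cartilage. TNXB, of the tenascin family, exceeded transient cartilage by at least 36.2-fold in the intermediate interzone and by at least 26.0-fold in the outer interzone. CILP2, the paralog of CILP, was 11.4-fold higher in the deep layer than in transient cartilage, where its level of -8.10 lay near the floor of -8.84. The median of the measured relatives was 0.55 log2 in the intermediate interzone against transient cartilage, beside 0.36 over all genes.

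Of 23 other matrix glycoproteins on the array, 11, 5 and 3 were well above background in the superficial, middle and deep layers, against 15, 15 and 14 in the intermediate interzone, outer interzone and transient cartilage. These counts stand beside the shares of all probes given for the integrins, which are also lower on the adult arrays. In the intermediate interzone against transient cartilage 4 of 17 were at least 4-fold higher and 3 lower, beside 17.5% and 14.5% of all genes. In the superficial against the deep layer 8 of 13 were higher and 1 lower, beside 36.9% and 12.4%. SVEP1, a large adhesion protein, was 71.3-fold higher in the intermediate interzone and 19.0-fold higher in the outer interzone than in transient cartilage. Its level in transient cartilage was -7.67, beside a floor of -8.84. LAMB1, a laminin beta chain, was 9.59-fold and 7.68-fold higher in the same comparisons. CTGF, of the CCN family, was 2467-fold higher in the superficial layer than in the intermediate interzone. Its level in the intermediate interzone, -7.23, lay near the floor of -8.02, and the outer interzone had -4.51. In the deep layer CTGF exceeded transient cartilage by at least 4685-fold. CYR61, of the same family, was at least 239-fold higher in the superficial layer than the deep layer. TGFBI, which binds collagen and integrins, ran the other way, at least 2356-fold lower in the superficial layer than in the intermediate interzone.

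**Figure D5:**
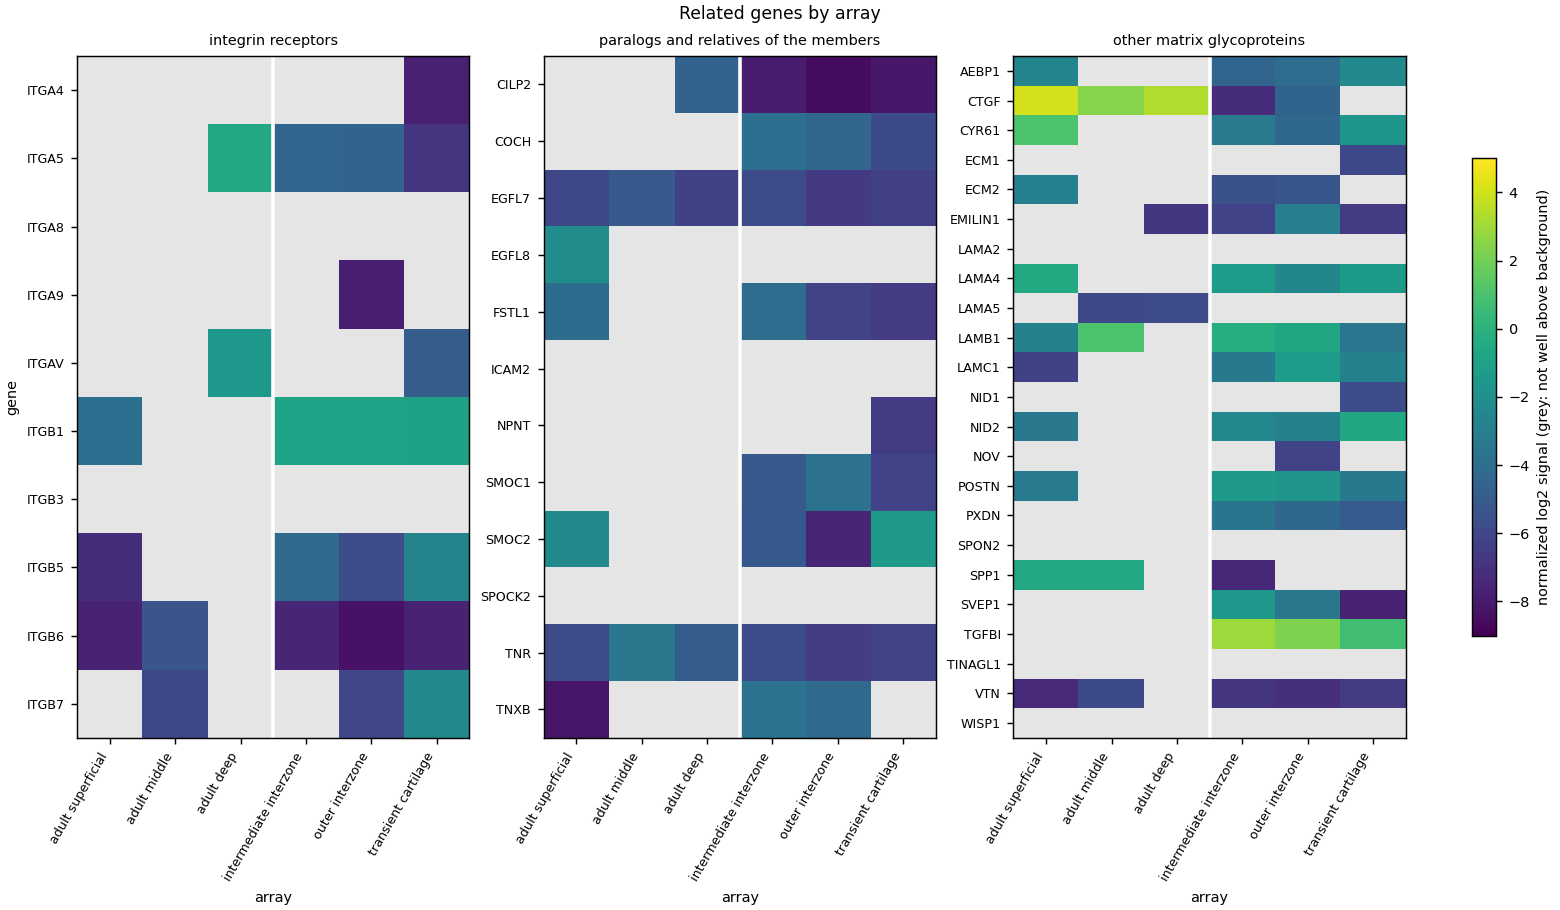
Normalized log2 signal (colour) of integrin receptors, relatives of the 10 genes and other matrix glycoproteins (rows) on the 6 arrays (columns). Grey cells are not well above background. CTGF is at 4.04, 2.45 and 3.36 on the adult arrays and TGFBI is filled on the fetal arrays only.

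For each gene, the genes with the most similar profile were those with the smallest root mean square difference between centred levels over the arrays where the gene was above background. For FN1, over 6 arrays and 530 candidates, these were RETREG3 (0.70 log2), ZNF652 (1.20) and IQGAP1 (1.21). ABI3BP was closest to MKX (1.04), a tendon transcription factor, then to RETREG3 (1.12) and EMP1 (1.13). TNC, over 5 arrays, was closest to SIK3 (0.38), SERBP1 (0.45) and LIAS (0.56). SPARC, over 4 arrays, was closest to COPS6 (0.21), and VCAM1, over 4 arrays, to MINA (0.32). EGFL6, over 3 arrays, was closest to SELENOP (1.15), FAT4 (1.19) and PROM1 (1.20), and EDIL3, over 3 arrays, to PLTP (1.07). SPARCL1, CILP and VIT were above background on too few arrays for this measure. These are descriptions over few arrays.

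Markers of other cell types moved with some of these regions, and their part in the values above was not tested. The sums below count every listed gene on the array, also those not well above background. Tendon, ligament and fibroblast markers (8 on the array) summed to 3.59, 0.199 and 0.222 of the scaling signal in superficial, middle and deep layers. They summed to 56.4, 39.2 and 26.3 in the intermediate interzone, outer interzone and transient cartilage. In transient cartilage only MKX, COL1A2, COL3A1 and THBS4 of them were well above background. Interzone and articular surface markers, 11 on the array, summed to 34.2, 18.03 and 1.11 in the adult layers, against 27.2, 17.5 and 1.08 in the fetal regions. The adult sums rest mostly on PRG4 in the superficial layer (5.02) and the deep layer (0.11) and on CD44 in the middle layer (4.16), while GDF5, OSR1, OSR2, BARX1 and SFRP2 were not well above background in any adult layer. Macrophage and leukocyte markers, 6 on the array, summed to at most 0.239, in the middle layer. Of 5 smooth muscle and pericyte markers, none was well above background in the middle or deep layer, and between 1 and 3 were on the other arrays. Of 5 epithelial markers, KRT17 (-2.15) and EPCAM (-5.59) were well above background in the outer interzone and none was in the intermediate interzone or transient cartilage. Among adult layers KRT14 was so in the superficial layer, KRT17 in the middle layer and none in the deep layer. HBB, a red blood cell marker, had levels of -2.33, -6.08 and -4.63 in the intermediate interzone, outer interzone and transient cartilage. Among adult layers it was well above background in the deep layer only, at -2.16 log2 against transient cartilage. Skeletal muscle markers, 8 on the array, summed to 0.0473, 0.137 and 0.0707 in the superficial, middle and deep layers, against 0.610, 0.417 and 0.410 in the fetal regions.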

How the data were processed

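Gene expression was measured on 6 single-colour Agilent horse arrays, 1 per region, after PCR-based amplification of the RNA, per the labels' protocols. That amplification can change relative transcript amounts. Scanner output was deposited as read by Agilent's Feature Extraction software (version 10.7.3.1, per the file headers). The authors' processed signals are linear intensities after background subtraction, per the file headers, with flags for spots well above background. The deposited series table holds the ratio of that signal to each array's median, as the values themselves showed, and served as an alternative.

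The 1417 control spots and outlier spots (3 to 80 per array) were left out, spots of a probe were averaged, and log2 signals were scaled to the 75th percentile of the 1765 probes that passed this flag on all 6 arrays. For genes with several probes the one with the highest mean level is reported. Probes were named from the files' descriptions through a horse gene table (RefSeq, assembly TB-T2T), with no coordinates taken from it. Of 140 members of 14 gene lists, 119 were on the array. A gene counted as higher or lower at 4-fold or more, measured on both arrays or by a bound: the bright level against the higher of the dim array's floor and the dim probe's own level. Genes well above background on 1 side but too dim for a bound stayed in the counts of compared genes. Groups of 1 array allow neither a replicate check nor a p-value, and spot errors leave out animals, dissection and amplification. The precision of each value is limited by that number of arrays.

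The 10 genes and all lists were chosen with earlier results of these data known. All 10 genes are described, with up to 4 measured genes and 2 bounds per related list and comparison, and up to 3 genes of most similar profile, of which the text gives a selection. Alternatives were 3 other percentile scalings, quantile normalization, normexp correction with an offset of 50 (limma 3.58.1 in R 4.3.3), the deposited table, the mean over probes, a narrower and a wider detection filter and a 2-fold threshold. The fold calculation was tested on simulated data. Other steps used Python 3.11.15.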

Additional observations from a re-analysis of the deposited data

How the results depend on the processing

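The number of the 10 genes past the fold threshold stayed within 1.5 times its value under most alternatives. For the superficial layer against the intermediate interzone it was 5, and 8 with the 75th percentile of all probes, the 50th percentile of all probes, the deposited table or a 2-fold threshold. For the intermediate against the outer interzone it was 0, and 1 with normexp, 2 with the wider filter and 2 with the 2-fold threshold. For the middle against the deep layer it was 5, and 3 with the wider filter. For the superficial against the middle layer it was 3, and 5 with the 2-fold threshold. With the 75th percentile of all probes 2 genes, not 1, had non-overlapping adult and fetal values. Of 59 single differences, 54 kept their sign under the alternatives, and 5 took either sign: FN1 and SPARC between the interzone regions, VCAM1 in the intermediate interzone against transient cartilage, ABI3BP in the superficial against the deep layer and EDIL3 in the superficial layer against the intermediate interzone. Those 5 are differences measured on both arrays. Many of the 59 are bounds, and a bound cannot change sign, because one in the wrong direction is given no value. The count of 54 therefore overstates how stable the signs are. Over all genes, the share of calls that ran upwards for the superficial against the middle layer was 67.9%, with a range of 26.0% with quantile normalization to 93.9% with the 50th percentile of all probes, and in the deep layer against transient cartilage it was 25.7%, with a range of 17.7% to 80.5%. In the other comparisons it also moved by over 10 percentage points. The cause was not tested. Detection limits the middle layer most, where 8.39% of probes were well above background. No paired analysis was possible because each group has 1 array.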

Other observations

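Adult cartilage layers also differed in matrix glycoproteins outside the 10 genes. SPP1 (osteopontin), a phosphoprotein that binds integrins, exceeded the deep layer in the middle layer by at least 79.3-fold. Under the main scaling its level in the superficial layer was the same, -0.557 against -0.555 in the middle layer. LAMB1 exceeded the deep layer in the middle layer by at least 237-fold, and lay 14.4-fold lower in the superficial than the middle layer. Both superficial against middle values depend on the scaling. The median of all measured genes in that pair was -1.52 log2, -3.11 with quantile normalization and 0.43 with the 50th percentile of all probes. Processed SPP1 signals were 1740 in the superficial and 345 in the middle layer. LAMA4, a laminin alpha chain, exceeded the deep layer in the superficial layer by at least 81.9-fold. Of 5 osteoblast markers on the array, IBSP, BGLAP and SP7 were well above background in the superficial layer. BGLAP was also well above background in the middle layer and in all fetal regions, and IBSP and SP7 on no other array.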
